A study of Capsella grandiflora x Capsella rubella and Capsella rubella and Capsella grandiflora with 8 samples.

Results

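The genes described here are the Capsella rubella homologues of 2 Arabidopsis genes, AGL62 (Carubv10028580m.g) and AGL61, also called DIANA or DIA (Carubv10024914m.g). They were chosen by name, as the C. rubella genes that the study's list of homologues pairs with those Arabidopsis genes, and they are 2 of the 26521 genes counted. RNA was sequenced from whole seeds of 4 crosses, written as female × male: the parental species each crossed within itself, C. rubella (Cr, accession Cr48.21) and C. grandiflora (Cg, accession Cg4a), and their reciprocal hybrids, Cr × Cg and Cg × Cr. C. rubella is a selfing species and C. grandiflora an outcrossing one, and the question was which transcripts differ between the seeds of the hybrid crosses and those of the parents. The flowers of every cross, those within a species included, were emasculated and pollinated by hand. There were 2 libraries per cross, made as biological replicates of 300 to 500 seeds each, harvested at 6 days after pollination (DAP). Whole seeds hold embryo, endosperm and seed coat, so fewer cells of one kind and less RNA per cell cannot be told apart.

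AGL62 and AGL61 are MADS-box transcription factors of the female gametophyte and the endosperm, the tissue that nourishes the embryo. In Arabidopsis the endosperm first grows as a syncytium and then cellularizes. AGL62 keeps the endosperm from cellularizing early and is repressed by the FIS Polycomb complex around the time of cellularization, while AGL61 is needed for the central cell, the female cell that gives rise to the endosperm, and acts there together with AGL80. These roles are known from Arabidopsis, and none of them was measured in Capsella here.

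The libraries held between 24838286 and 34290034 counted reads. Levels are given as CPM, the counts scaled to a common library size with the trimmed mean of M-values (TMM), and a gene was called where edgeR's quasi-likelihood test gave a Benjamini-Hochberg adjusted p under 0.05 over the 21214 genes that passed a filter on low counts. Against this scaling, the median log2 fold change of all genes tested was between −0.02 and 0.03 in the comparisons of Cr × Cg with Cr, Cg and Cg × Cr. A count of 3 was worth between 0.0889 and 0.126 CPM, depending on the library, and intervals given for counts and ratios are exact 95% intervals that cover counting error only.

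The AGL62 homologue was almost without reads in both parents and was detected in both libraries of Cr × Cg seeds. The Cr × Cg libraries held 44 and 52 of its reads, the Cg × Cr libraries 0 and 8, the Cr libraries 2 and 0, and the Cg libraries none. Both Cr × Cg libraries stood above the other 6, without overlap. In CPM its level was 1.31 and 2.19 in Cr × Cg seeds, a mean of 1.75 ± 0.62 (SD, n = 2), against 0.0593 and 0 in Cr, 0 and 0 in Cg, and 0 and 0.303 in Cg × Cr. It reached the filter's level of 0.353 CPM in the Cr × Cg libraries alone, so it was tested because of its level there.

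The AGL61 homologue was also highest in Cr × Cg seeds and, unlike AGL62, gave reads in both Cg libraries. The Cr × Cg libraries held 172 and 354 of its reads, the Cg × Cr libraries 0 and 13, the Cr libraries 1 and 1, and the Cg libraries 22 and 5. Again both Cr × Cg libraries stood above the other 6. The same pattern, with both Cr × Cg libraries above all others, was found in 15.8% of the genes tested. In CPM the level of AGL61 was 5.13 and 14.9 in Cr × Cg seeds (mean 10.0 ± 6.92 SD, n = 2), 0.732 and 0.185 in Cg (0.459 ± 0.387), 0.0296 and 0.0390 in Cr (0.0343 ± 0.00663), and 0 and 0.492 in Cg × Cr (0.246 ± 0.348). The order of the crosses was thus Cr × Cg, Cg, Cg × Cr and Cr for AGL61, and Cr × Cg, Cg × Cr, Cr and Cg for AGL62. Of the neighbours in these orders, only Cr × Cg and Cg differed for AGL61 by edgeR; the others were not called, Cr × Cg and Cg × Cr for AGL62 included.

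**Figure D1:**
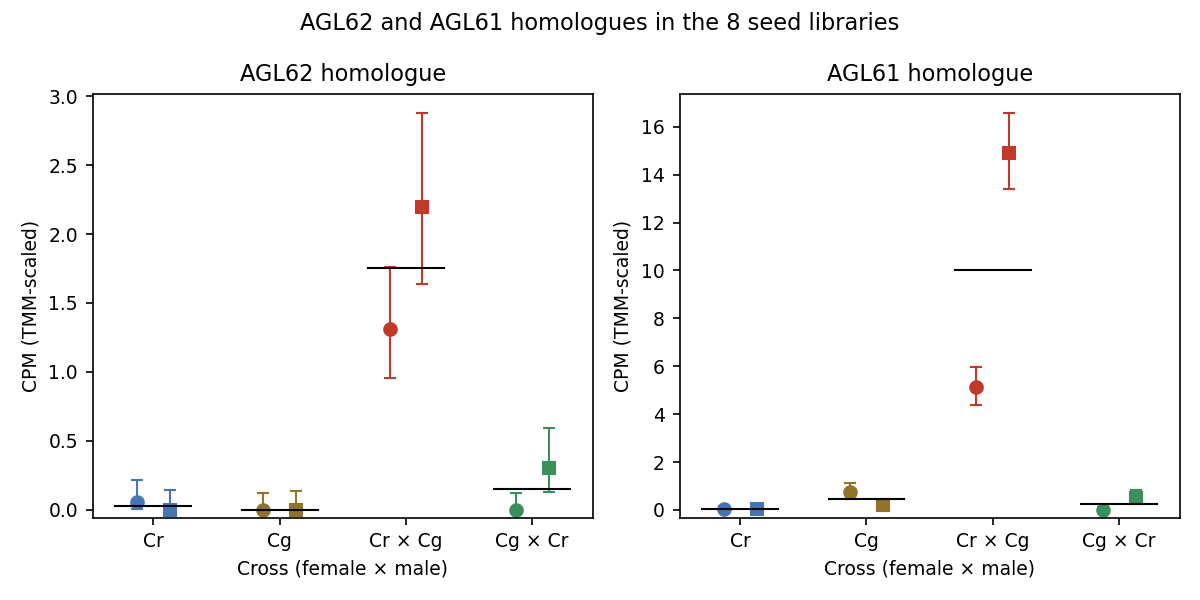
CPM (TMM-scaled, linear axis) of the AGL62 homologue (left) and the AGL61 homologue (right) in each of the 8 seed libraries, by cross; circles are replicate 1, squares replicate 2, vertical bars the exact 95% counting interval of each library, and horizontal lines the mean of the cross. In Cr × Cg, AGL62 was at 1.31 and 2.19 CPM and AGL61 at 5.13 and 14.9 CPM, while no other library exceeded 0.303 CPM for AGL62 or 0.732 CPM for AGL61.

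Compared with Cr, the seeds whose mother is of the same species, Cr × Cg seeds had 49.8 times the AGL62 reads (interval 13.4 to 417.1, from 96 against 2 counts) and 272.9 times the AGL61 reads (75.2 to 2259.2, from 526 against 2 counts). Both homologues were called higher by edgeR, with a log2 fold change of 5.56 ± 1.54 (SE) and an adjusted p of 0.040 for AGL62, and of 8.04 ± 1.57 and 0.0104 for AGL61. Of all genes tested, 12.4% were called higher in this comparison. With so few counts in Cr the sizes of these fold changes are loosely set. The AGL62 call was lost without either Cr library (adjusted p 0.102 without replicate 1 and 0.175 without replicate 2) and without either Cr × Cg library (0.0752 and 0.126), and with the replicate number as a block (0.0539). The AGL61 call was lost without either Cr library (0.0758 and 0.0805). The log2 fold change of AGL62 was 4.78 without Cr replicate 2 and has no fixed size without Cr replicate 1, which held all Cr reads; that of AGL61 was 7.08 without Cr × Cg replicate 2 and 8.61 without Cr × Cg replicate 1.

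Compared with Cg, the species of the father, Cr × Cg seeds had at least 31.9-fold higher AGL62 reads, counting Cg at the limit of 3 counts over both of its libraries (the exact 95% lower limit of the ratio is 25.5), and 19.4 times the AGL61 reads (13.2 to 29.8, from 526 against 27 counts). Both homologues were called higher by edgeR, as were 7.28% of the genes tested. The log2 fold change of AGL61 was 4.42 ± 1.20 (SE) with an adjusted p of 0.0458, and the adjusted p of AGL62 was 0.034; its fitted fold change has no fixed size, since Cg was at 0. The AGL62 call was lost without either Cg library (0.14 and 0.117) and without either Cr × Cg library (0.0706 and 0.111). The AGL61 call was lost without any one of the Cr, Cg or Cr × Cg libraries (between 0.0679 and 0.194), with no filter on low counts (0.0543) and with the replicate block (0.0714). Its log2 fold change ran from 3.46 without Cr × Cg replicate 2 to 5.72 without Cg replicate 1, and was 5.00 without Cr × Cg replicate 1 and 3.76 when Cg replicate 2 was left out. Both homologues were thus called higher than each of the parents, and 3.72% of the genes tested were. AGL62 entered the tests only through its level in Cr × Cg. The direction of its calls against Cr, Cg and the mean of the parents was therefore set by the filter and is no independent evidence. Shares over all genes are not a like comparison for it, since 539 of the genes tested had fewer than 2 libraries at the filter's level outside Cr × Cg.

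Compared with the mean of the parents on the log2 scale, the adjusted p by edgeR was 0.0113 for AGL62 and 0.00561 for AGL61, and 12.2% of the genes tested were called higher. The log2 fold change of AGL61 was 6.23 ± 1.04 (SE). With the reads of the 4 parental libraries summed, Cr × Cg seeds had 97.7 times the AGL62 reads (26.3 to 818.1, 96 against 2 counts) and 36.9 times the AGL61 reads (25.4 to 55.7, 526 against 29 counts). In this comparison the calls were kept under most alternatives. AGL61 stayed under the threshold in all 14 alternatives tried, and AGL62 passed it in 13 of 14, the exception being the fit without Cr × Cg replicate 2 (adjusted p 0.057). The log2 fold change of AGL61 ran from 5.27 without Cr × Cg replicate 2 to 6.88 without Cg replicate 1, and was 6.80 without Cr × Cg replicate 1.

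**Figure D2:**
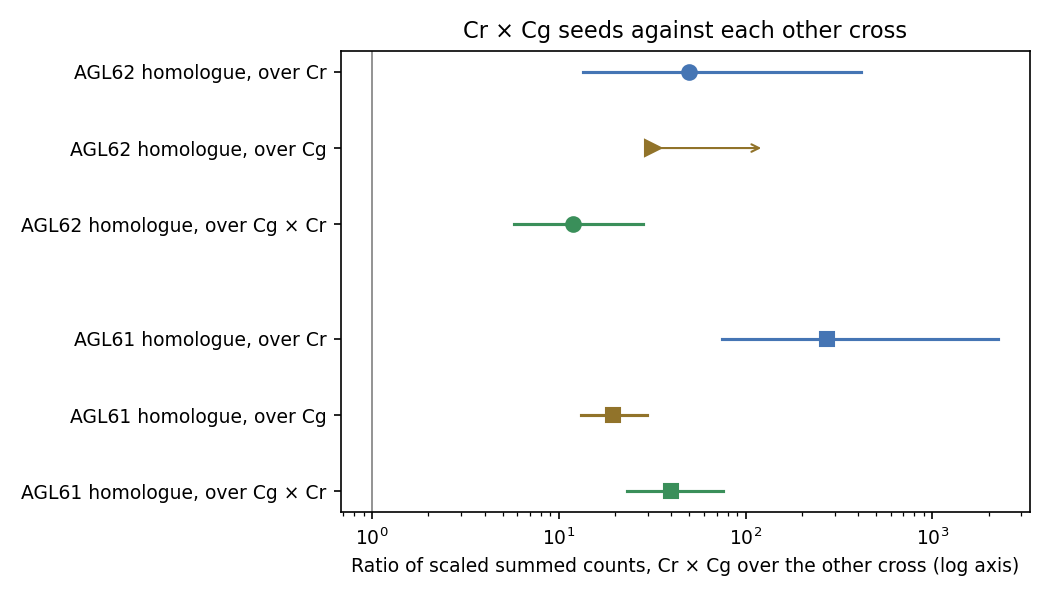
Ratio of summed counts, scaled by library size, of Cr × Cg seeds over Cr, Cg and Cg × Cr seeds for the AGL62 homologue (circles) and the AGL61 homologue (squares), on a log axis. Horizontal bars are exact 95% counting intervals. The triangle with an arrow is AGL62 over Cg, which had no AGL62 read. It is drawn as a bound at 31.9, with Cg counted at 3 reads (exact 95% lower limit 25.5). All 6 ratios lay above 1. Apart from the bound, which has no upper limit, they ran from 11.9 for AGL62 over Cg × Cr to 272.9 for AGL61 over Cr. The ratios over Cr rest on 2 counts of each gene there.

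The reciprocal hybrids come from the same 2 parental species with mother and father exchanged. Cr × Cg seeds had 11.9 times the AGL62 reads of Cg × Cr seeds (5.78 to 28.3, 96 against 8 counts) and 40.0 times the AGL61 reads (23.2 to 75.6, 526 against 13 counts). Only AGL61 was called by edgeR, with a log2 fold change of 5.36 ± 1.28 (SE) and an adjusted p of 0.0209, while AGL62 missed the threshold with 3.53 ± 1.30 and 0.0906. Of all genes tested, 11.6% were called higher in Cr × Cg than in Cg × Cr. In 32.2% both Cr × Cg libraries lay above both Cg × Cr libraries, as they did for AGL61. The same order for AGL62 was set by the filter, which it passed only through its level in Cr × Cg. That order is no independent evidence. The AGL61 call was lost without Cr × Cg replicate 2 (0.0944) and in the fit on the 4 hybrid libraries alone (0.0522), and AGL62 was called without Cg × Cr replicate 2 (0.0461). The log2 fold change of AGL61 was 4.40 without Cr × Cg replicate 2, 4.36 without Cg × Cr replicate 1 and 5.97 without Cr × Cg replicate 1, and that of AGL62 was 2.53 without Cg × Cr replicate 1; without Cg × Cr replicate 2 neither has a fixed size. DESeq2 called AGL61 here (adjusted p 1.53e-05) and not AGL62 (0.123).

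All reads of both homologues in Cg × Cr seeds came from replicate 2, with 8 for AGL62 and 13 for AGL61, and replicate 1 had none of either. Relative to replicate 1, Cr × Cg seeds had at least 16.8-fold higher AGL62 reads and at least 92.3-fold higher AGL61 reads, counting replicate 1 at 3 reads (exact 95% lower limits 13.4 and 74.8), and relative to replicate 2 they had 5.54 times (2.70 to 13.2) and 18.7 times (10.8 to 35.3) as many. The level in replicate 2 was 17.3% of the Cr × Cg mean for AGL62 and 4.90% for AGL61. A set of genes without reads in the parents, to which neither homologue belongs, also had more reads in this library than in replicate 1: of 20 genes with no read in the 4 parental libraries and at least 10 in each Cr × Cg library, 11 had reads in Cg × Cr replicate 2, at 5.98% of their summed Cr × Cg level, and 3 had reads in replicate 1, at 0.934%. The part of this difference between the replicates in the values of AGL62 and AGL61 was not tested.

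Cg × Cr seeds did not differ from either parent in either homologue by edgeR. The adjusted p was 0.543 against Cr and 0.293 against Cg for AGL62, and 0.421 and 0.72 for AGL61, while 6.47% and 2.55% of the genes tested were called in one direction or the other. The AGL61 reads of Cg × Cr were 0.486 times those of Cg (0.230 to 0.974, 13 against 27 counts) and 6.82 times those of Cr (1.54 to 62.3, 13 against 2 counts), and the AGL62 reads were 4.20 times those of Cr (0.838 to 40.6, 8 against 2 counts). Since replicate 1 was at 0 for both, a change upward against Cr rested on replicate 2; without it Cg × Cr is at 0 for both and its fitted fold changes have no fixed size. Against the mean of the parents neither was called (0.301 for AGL62 and 0.744 for AGL61; 2.89% of the genes tested were called).

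Between the parents, AGL61 had 14.0 times the reads in Cg that it had in Cr (3.53 to 121.9, 27 against 2 counts), with both Cg libraries above both Cr libraries, as in 30.1% of the genes tested. The difference was not called by edgeR (log2 fold change 3.62 ± 1.62 SE, adjusted p 0.183), and 7.66% of the genes tested were called higher in Cg. The Cg libraries themselves differed, the second having 0.252 times the reads of the first (0.0747 to 0.683). AGL62 had 2 counts in Cr and 0 in Cg, both under the limit of 3 counts, so no difference was detectable at this depth (adjusted p 0.503 by edgeR).

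The replicates of Cr × Cg also differed, and more so for AGL61. Replicate 2 had 2.91 times the AGL61 level of replicate 1 (2.42 to 3.51) and 1.67 times its AGL62 level (1.10 to 2.55). Within one library gene length cancels when the number of AGL61 reads per AGL62 read is compared between libraries. This number was 3.91 (2.79 to 5.58) in replicate 1 and 6.81 (5.08 to 9.29) in replicate 2, against 1.62 (0.624 to 4.52) in Cg × Cr replicate 2. Cg had no AGL62 read, so only its exact 95% lower limits are known, 5.48 in replicate 1 and 0.916 in replicate 2. A high number was thus not particular to Cr × Cg. The biological coefficient of variation that edgeR estimated was 0.737 for AGL62 and 0.776 for AGL61, against a common value of 0.303 over all genes. These values pool all 4 crosses and do not describe Cr × Cg alone. The common value covers genes of all levels, not only those with so few reads. Seed markers differed between the Cr × Cg replicates too. Homologues of 5 storage protein and oleosin genes (CRA1, CRU3, 2S3, OLEO1 and OLEO2) summed to 866.9 CPM in Cr × Cg replicate 1 and 27.7 CPM in replicate 2. The 4 embryo markers (LEC1, L1L, FUS3 and WOX9) summed to 60.3 and 35.8 CPM. In Cg × Cr the storage genes summed to 3245 and 1433 CPM in replicates 1 and 2, in Cr to 8443 and 625.4 CPM, and in Cg to 259.1 and 140.7 CPM. They were thus lower in replicate 2 of every cross, whereas the AGL61 level was higher in replicate 2 of Cr × Cg, Cg × Cr and Cr, on 1 read per library in Cr, and lower in replicate 2 of Cg. The part of these markers in the difference between replicates was not tested.

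Of the homologues of AGL80, the partner of AGL61 in the Arabidopsis central cell, 1 had enough reads to be tested and was not called. This homologue, Carubv10014232m.g, was counted 1 and 17 times for Cr × Cg, 7 and 6 for Cg × Cr, 6 and 2 for Cr, and 22 and 4 for Cg. In CPM its replicates overlapped between all crosses except Cr and Cg × Cr, and it was not called in any of the 8 comparisons (log2 fold change of Cr × Cg against Cr 1.42, adjusted p 0.495 by edgeR). The other AGL80 homologue, Carubv10028059m.g, had 3 reads in all, 1 in Cr replicate 1 and 2 in Cr × Cg replicate 1, and was not tested.

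The likeness of patterns was measured as Pearson's r of log2(CPM + 0.5) over the 8 libraries, which share crosses and sequencing depth, so that any gene that is high in Cr × Cg alone scores near 1. The r between AGL62 and AGL61 was 0.961, which placed AGL61 at rank 130 among the genes most like AGL62 and AGL62 at rank 243 among those most like AGL61. Among all genes tested, the 5 closest to AGL62 were Carubv10022298m.g (r = 0.998), Carubv10016743m.g (0.997), Carubv10006761m.g (0.996), Carubv10011211m.g (0.994) and Carubv10003957m.g (0.993). The 5 closest to AGL61 were Carubv10011117m.g (0.998), Carubv10012372m.g (0.997), Carubv10005711m.g (0.996), Carubv10018533m.g (0.996) and Carubv10021663m.g (0.995). Carubv10011211m.g was counted 87 and 83 times for Cr × Cg, 0 and 8 for Cg × Cr, and never for the parents, as AGL62 nearly was. Carubv10011117m.g was counted 469 and 1478 times for Cr × Cg, 1 and 32 for Cg × Cr, 3 and 1 for Cr, and 39 and 15 for Cg, with the higher Cr × Cg value in replicate 2 as for AGL61. With 0.1 in place of 0.5 as the pseudocount, r between AGL62 and AGL61 was 0.902, and 3 of the 5 genes stayed among the closest for each.

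Homologues of genes for cell plate formation and cytokinesis were lower in Cr × Cg, the seeds in which AGL62 and AGL61 were higher. In Arabidopsis, KNOLLE (KN) is the syntaxin of the cell plate. There HINKEL (HIK), TES, POK1, POK2 and MAP65-3 serve the phragmoplast and the placing of the division plane. EDE1 is a microtubule protein of the endosperm, and RUK is a protein of the phragmoplast. All 8 homologues were called lower by edgeR when Cr × Cg was compared with Cr or with Cg × Cr, 7 of 8 when it was compared with Cg, and none was called in Cg × Cr against Cr or Cg, where 0 and 1 had an unadjusted p under 0.05 and DESeq2 called none. These 8 were paired with Arabidopsis through the study's list of genes deregulated in the same seeds, so their direction is not independent evidence. Of all genes tested, 10.3% were called lower than Cr, 7.59% lower than Cg and 13% lower than Cg × Cr. In Cg × Cr, 6.47% were called against Cr and 2.55% against Cg in either direction. The absence of a call among the 8 in Cg × Cr is near those shares. The KN homologue was counted 1221 and 327 times for Cr × Cg, 6473 and 8247 for Cg × Cr, 12995 and 11349 for Cr, and 10681 and 9103 for Cg, with a log2 fold change of −4.04 against Cr. Between replicates 1 and 2 of Cr × Cg, KN was at 36.4 and 13.8 CPM. HIK, TES, MAP65-3 and RUK were also lower in replicate 2, while EDE1 (3.70 and 3.67 CPM), POK1 (15.1 and 14.6) and POK2 (21.2 and 19.7) differed little. A relation to the AGL61 reads of these libraries was not tested. POK1 had the smallest change, −1.25 against Cr and −0.53 against Cg (adjusted p 0.146, not called). The number called lower than Cr was 8 in every alternative tried, and 7 against Cg.

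The endosperm regulators described next came from the same list of deregulated genes and are likewise not independent of the outcome. Of the FIS Polycomb genes, which repress AGL62 in Arabidopsis, the MEA homologue was higher and the FIS2 homologue was not called. MEA, a histone methyltransferase, was counted 274 and 198 times for Cr × Cg, 0 and 8 for Cg × Cr, 9 and 10 for Cr, and 24 and 27 for Cg, with a log2 fold change of 4.65 against Cr and 3.20 against Cg. As with AGL62 and AGL61, its reads in Cg × Cr came from replicate 2 alone. FIS2, a zinc finger protein of the complex, was counted 45 and 76 times for Cr × Cg, 36 and 97 for Cg × Cr, 232 and 271 for Cr, and 235 and 194 for Cg, with −1.95 against Cr (adjusted p 0.0534 by edgeR) and −1.73 against Cg (0.0972). In Cg × Cr, FIS2 was not called either, with −1.84 against Cr (adjusted p 0.123 by edgeR) and −1.63 against Cg (0.185). A relation between FIS2 and the levels of AGL62 and AGL61 was not tested.

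Of the auxin genes, YUC10 and TAR1, which make auxin in the endosperm, were called higher in Cr × Cg (log2 fold change 2.10 and 4.00 against Cr, 2.36 and 3.47 against Cg). TAA1, which acts at the same step as TAR1, was called lower (−3.27 and −2.44). MINI3, a WRKY factor of endosperm growth, was called higher at 4.92 against Cr and 2.82 against Cg, and CKX2, a cytokinin oxidase, only against Cr (1.24; 0.88 against Cg, adjusted p 0.103 by edgeR). ZOU and ICE1, which together drive the breakdown of the endosperm, were called lower (−3.05 and −2.92 against Cr, −2.46 and −2.09 against Cg).

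The imprinted genes FWA and SUVH7 were called higher at 3.40 and 2.97 against Cr and at 2.29 and 1.58 against Cg, while PKR2 was not called against either (0.49 and −0.70). The ADM homologue was below the filter, with 8 and 16 counts in Cr × Cg and none elsewhere. Against Cr, 7 of the 12 tested endosperm regulators were called higher and 3 lower in Cr × Cg, against 12.4% and 10.3% of all genes tested, and against Cg 6 and 3, against 7.28% and 7.59%. In Cg × Cr none was called against Cr by edgeR (4 at an unadjusted p under 0.05, 3 by DESeq2), where 6.47% of all genes tested were called, and against Cg 3 were called lower, MINI3, SUVH7 and PKR2, as were 1.32% of the genes tested.

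**Figure D3:**
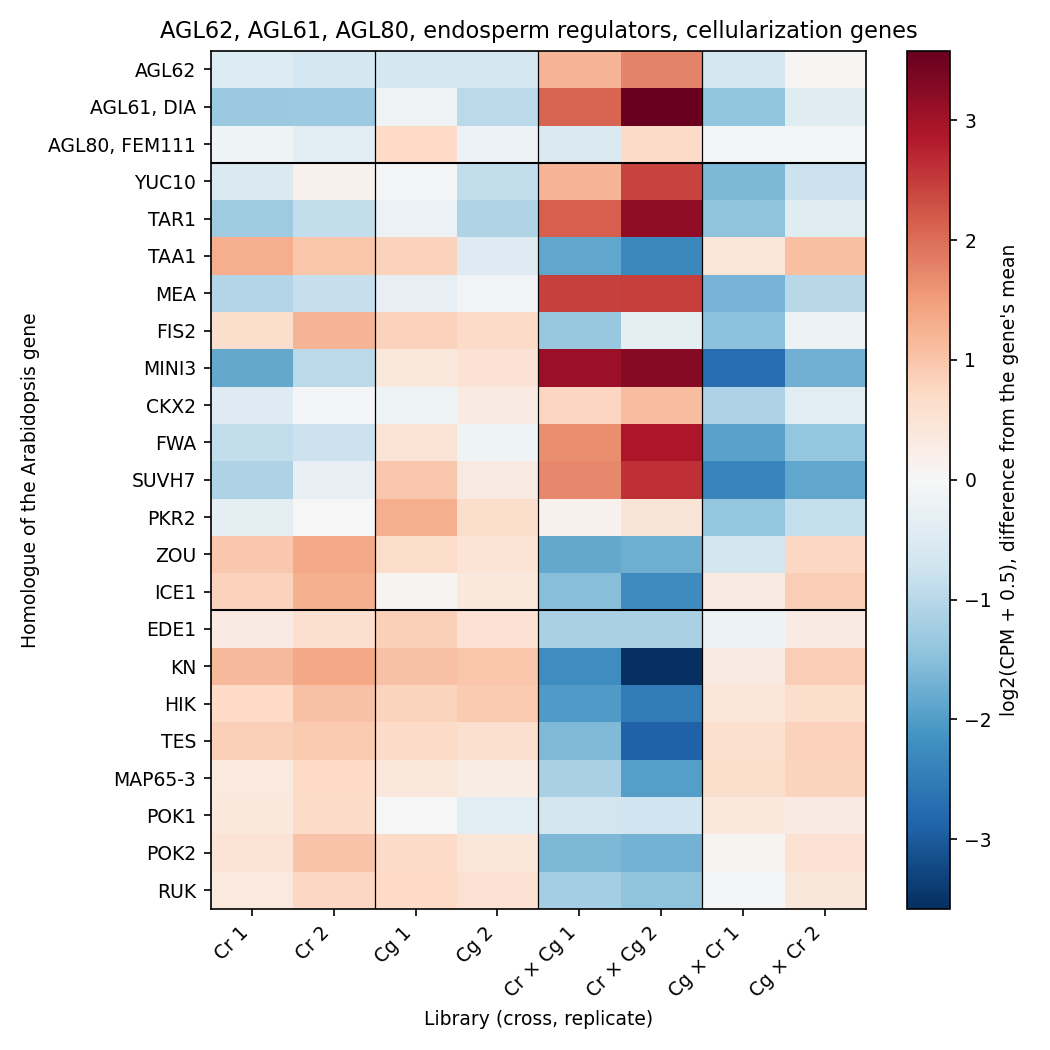
Difference of log2(CPM + 0.5) from each gene's mean over the 8 libraries, red above and blue below, for AGL62, AGL61 and AGL80 (top block), endosperm regulators (middle) and cellularization genes (bottom); columns are libraries by cross and replicate. The Cr × Cg columns are red for AGL62, AGL61, YUC10, TAR1, MEA, MINI3, FWA and SUVH7, and less so for CKX2 and PKR2. They are blue for the regulators TAA1, FIS2, ZOU and ICE1 and for all 8 cellularization genes. Replicate 2 of Cr × Cg is the deeper red for AGL61.

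Some markers of the seed parts differed with the cross as well. Of 4 embryo markers, LEC1 and WOX9 were called lower by edgeR in Cr × Cg than in Cr and than in Cg. L1L (adjusted p 0.0664 and 0.638 by edgeR) and FUS3 (0.054 and 0.201) were not. Among all genes tested, 10.3% were called lower than Cr, 7.59% lower than Cg and 12.4% higher than Cr. The 4 embryo markers summed to between 35.8 and 60.3 CPM in Cr × Cg, against 343.7 to 367.2 in Cr, 120.1 to 281.8 in Cg and 272.2 to 350.9 in Cg × Cr. The seed coat transporter homologue TT12, called higher than Cr and not called against Cg (adjusted p 0.0946 by edgeR), was at 149.4 and 200.2 CPM in Cr × Cg, against 22.8 to 26.6 in Cr, 76.9 to 127.1 in Cg and 70.0 to 81.0 in Cg × Cr. The 5 storage genes had adjusted p-values by edgeR of 0.111 to 0.466 in Cr × Cg against Cr and of 0.226 to 0.993 against Cg, with a median log2 fold change of −3.12 against Cr and 2.54 against Cg, 4 of the 5 being above 0 against Cg. These markers, too, were paired through that list of deregulated genes. The part of a different make-up or stage of the seeds in the levels of AGL62 and AGL61 was not tested.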

How the data were processed

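RNA was prepared with the TruSeq RNA kit v2, which does not mark strand. The authors aligned reads to the C. rubella genome v1.0 with Stampy v1.0.23, discarded multiply mapping reads with SAMtools and counted reads per gene with htseq-count; the deposited values are these raw counts, and Trimmomatic is named in the submitters' processing notes. Reads of C. grandiflora alleles were therefore aligned to the other species' genome, and genes with close copies lose reads that map to several places; neither effect was measured here. All 8 libraries entered edgeR (4.0.16, R 4.3.3): TMM scaling, filterByExpr with a count minimum of 10, and quasi-likelihood tests of 8 contrasts, with 4 residual degrees of freedom. Ratios of summed counts carry exact binomial intervals (SciPy 1.17.1). DESeq2 (1.42.0), other filters and scalings, a replicate block, fits on the crosses compared alone and fits without each library were alternatives. The tests were also run on simulated data, with changes set only in genes of higher mean count than AGL62 and with the spread typical of their level. Changes in genes as low as AGL62, or as variable as both homologues, were not covered by that run.

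The members and gene lists were chosen with earlier results of these data known. Named were both homologues, the AGL80 homologues, the genes of the other lists, and for each homologue the 5 genes with the highest r. The counts of list genes under the alternatives were added after seeing the data. Counts over a wider list of homologues are not reported here.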

Additional observations from a re-analysis of the deposited data

Results flagged for a closer look

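The AGL61 homologue differed between the 2 hybrids in its change from the same parents: the direct test of Cr × Cg against Cg × Cr gave a log2 fold change of 5.36 (adjusted p 0.0209 by edgeR), both Cr × Cg libraries being above both Cg × Cr libraries, as in 32.2% of the genes tested. The call was lost without Cr × Cg replicate 2 (0.0944) and in the fit on the hybrid libraries alone (0.0522).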

How the results depend on the processing

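The number of genes called by edgeR was moved by over 1.5 times by DESeq2 in the comparisons with smaller counts: Cg × Cr against Cr from 1373 to 2536, Cg × Cr against Cg from 541 to 1937, Cg against Cr from 2766 to 4211, and Cg × Cr against the mean of the parents from 614 to 1668. Leaving out 1 library at a time gave 2055 to 4555 calls in Cr × Cg against Cr (4822 with all), 1100 to 3026 against Cg (3155), 2276 to 4825 against Cg × Cr (5213) and 1955 to 4255 against the mean of the parents (4482); in Cg × Cr it gave 241 to 1156 against Cr, 162 to 461 against Cg and 168 to 520 against the mean of the parents, and in Cg against Cr 966 to 2684. The cause of these shifts was not tested, beyond the smaller number of libraries. Replicate numbers are shared between the crosses, and no label says that they mark a common batch. The paper paired libraries by replicate for its fold changes, and replicate 2 had fewer counted reads in every cross. The replicate differences of the crosses correlated between −0.208 and 0.36. Whether the replicates share a batch was not tested. With the replicate block, 4506 genes were called in Cr × Cg against Cr and 2769 against Cg. That block gave 1071 and 495 in Cg × Cr, 2417 in Cg against Cr and 4915 between the hybrids. Uncalled log2 fold changes of Cg × Cr changed sign when a library was left out: against Cr they ran from −3.11 to 5.07 for AGL62 and from −3.15 to 3.68 for AGL61, against the mean of the parents from −1.55 to 5.07 and from −4.96 to 1.88, and against Cg from −6.76 to 0.36 for AGL61, which was at 0.07 without Cg × Cr replicate 1. All those below 0 in the first 4 ranges, and −6.76, came from leaving out Cg × Cr replicate 2, after which Cg × Cr had no read of either gene, so their size is arbitrary. The 5.07 of AGL62 against Cr came from leaving out Cr replicate 1, after which Cr had no AGL62 read, and is arbitrary too. Fold changes of AGL62 against the mean of the parents likewise have no fixed size, since Cg had no read of it. In fits on the crosses compared alone, neither homologue passed the filter in Cg × Cr against Cr or Cg against Cr, nor did AGL62 in Cg × Cr against Cg or against the mean of the parents. With 2 libraries per cross and parental counts of 0 to 22, the depth limits how closely the fold changes of both homologues are known.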
